A study of Mus musculus with 16 samples.

Results

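The response of hippocampal CA1 to spatial exploration was read in the mice labelled as lacking Neil3, by setting 3 libraries taken after exploration against 2 libraries taken from the home cage. These 5 libraries were chosen by their labels out of 16 samples. A gene was included when it was listed in both deposited tables and reached 1 FPKM (fragments per gene after scaling for transcript length and sequencing depth) in at least 2 of the 5 libraries, which held for 11633 of 17986 shared genes. All mice were males on a C57Bl6 background aged 3 to 6 months. The genotype of the compared mice is given as N3 -/-, for loss of NEIL3, a DNA glycosylase that starts base excision repair. Home cage mice had no intervention. The protocol in the labels describes trained mice as having spent 20 min per day for 1 week in an open field of 50 cm by 50 cm with a cue card and food cues, and as killed 20 min after the last session. It gives this under the name of learning, and does not describe the libraries named spatial exploration apart from it. CA1 was cut by laser from frozen sections of 8 µm, so each library holds neurons together with the glia and vessels lying among them. The same contrast in mice labelled wild type (3 exploration and 2 home cage libraries) is given beside it where it is needed, and 6 samples of the learning condition were not analysed here.

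Neil3 went against the labels. In the libraries labelled Neil3-/- it was at 13.77 and 15.22 FPKM in the home cage and at 15.13, 11.85 and 8.35 FPKM after exploration, whereas the wild-type-labelled libraries listed it at 0 in 4 and at 0.05 FPKM in 1. The names KO-labelled and WT-labelled below therefore state a library's label and nothing of its genotype. Within the KO-labelled libraries Neil3 did not pass the test between environments (log2 change -0.31 ± 0.18 SE, adjusted p = 0.207).

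The home cage and the exploration libraries stand in separate tables, so environment and table coincide, and their parts in any value below cannot be told apart. CA1 pyramidal cells answer a bout of activity with a fast wave of transcription: calcium entry and kinase signalling switch on immediate early genes, such as Fos, Egr1 and Npas4, within minutes and without new protein. Many of these encode transcription factors, others act at synapses or shut the signal off again, and a slower set of secreted and synaptic effectors follows. Exploration of a space is a classic inducer of Arc and Fos in CA1.

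After exploration 1436 genes were higher and 1943 were lower at an adjusted p under 0.05 (limma on log2(FPKM + 1), Benjamini-Hochberg over 11633 genes). Called genes were thus 29.0% of those tested, 12.3% higher and 16.7% lower. This is the background for the counts of this fit in each gene group below. Most changes were small: the mean FPKM of 133 called genes was at least 2-fold higher and that of 368 at least 2-fold lower, and 33 and 62 passed 4-fold. The test used all 10 home cage and exploration libraries to estimate the spread. With the 5 KO-labelled libraries alone 1700 genes (14.6%) were called. The 3 exploration libraries all lay above or all below both home cage libraries for 6077 genes (52.2%), which is therefore no mark of a response. No permutation test of single genes is given, because 3 against 2 libraries allow only 10 arrangements and cannot go below 0.05.

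Most calls depended on home cage library 2. Its median distance per gene from the mean of the exploration libraries was 0.25 on the log2 scale, against 0.17 for home cage library 1, and the 2 home cage libraries differed from each other by 0.15. The exploration libraries differed among themselves by 0.12 to 0.18. Without home cage library 2 the calls numbered 546, with 235 genes (2.02%) higher and 311 (2.67%) lower. That fit has a lone home cage library, assumed to vary like the other groups. Without library 1 there were 3551. Genes called in the 10-library fit, in the 5-library fit and in each of the 10 fits that left out a library numbered 216 higher (1.86%) and 295 lower (2.54%). They are named "called in every fit" below.

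**Figure D1:**
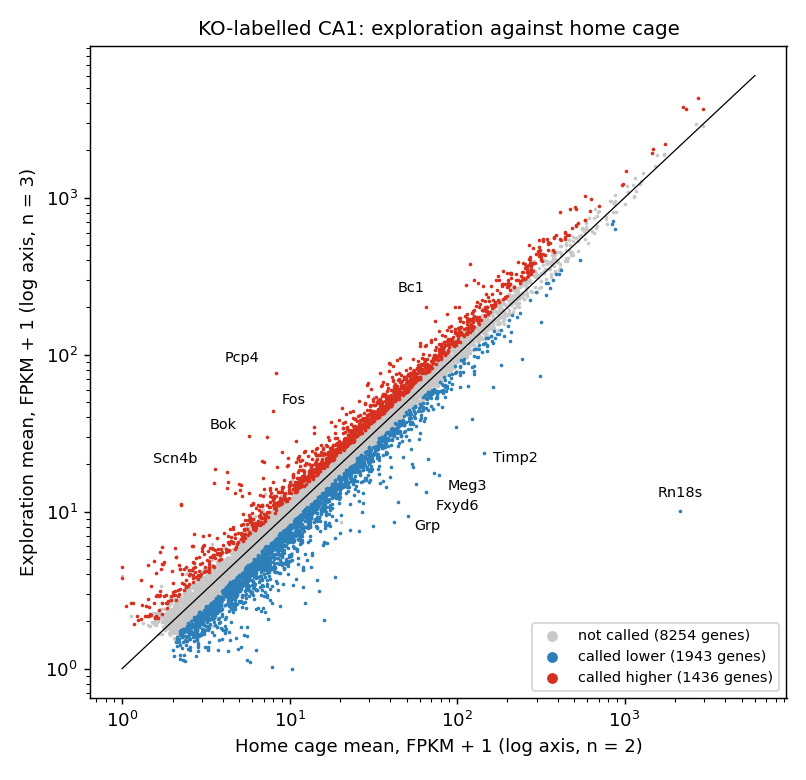
Mean FPKM + 1 of each tested gene in the 2 home cage (x axis) and the 3 exploration (y axis) KO-labelled libraries, both on log axes, with the line of equal values. The 1436 genes called higher and the 1943 called lower lie close to the line for the most part, with Pcp4, Fos, Bok and Scn4b far above it and Rn18s far below.

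Many genes of the first wave rose. Of 25 tested transcription factors and regulators of the immediate early class, 11 rose, 3 fell and 11 did not pass the test, with a median log2 change of 0.26 against -0.04 over all tested genes. The other 4 listed members stayed under the filter. Of 22 tested early effectors and feedback regulators, 13 rose, 1 fell and 8 did not pass, with a median of 0.45, and 3 stayed under the filter. Called in every fit were 6 of the first list and 5 of the second, all higher, and the same numbers, 6 and 5, rose without home cage library 2. In WT-labelled libraries, where 2.02% of 11892 tested genes were called higher and 4.29% lower, 12 and 8 members rose and none fell.

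The sequence just upstream of some of these genes is shown because activity-regulated promoters are known for 2 kinds of element, the cAMP response element (CRE) bound by CREB and the CArG box bound by SRF. RefSeq promoters of the build GRCm38.p6 were found for 18 of the 24 early genes that rose (no entry: Egr1, Egr3, Ier2, Arc, Dusp4 and Trib1), and the 250 bases before each start were searched on both strands. A gene with several starts counts as holding an element if any of them does. The full CRE, TGACGTCA, was in 4 of the 18 (Btg2, Dusp1, Arl4d and Plk2), and in 1.77% of the 27025 genes in the table and 3.3% of the 9284 tested genes that have an entry. Its core, TGACGT, which the full element contains on both strands, was in 9 of the 18, against 7.29% and 12.2%. The CArG box was in 2 (Egr2 and Dusp5), against 1.62% and 1.36%. These are matches of letters, and no binding was measured. The lists were made of genes known to respond to activity, and members that did not rise were not counted. The shares therefore cannot be tied to the rise in these libraries. Elements further upstream than 250 bases were not searched for. The upstream bases of 4 of these genes are given 5′ to 3′ on the strand of the gene, with matches to the 3 elements in capitals. They are Btg2 (chr1:134079156-134079405, minus strand), Arl4d (chr11:101665291-101665540, plus strand), Dusp5 (chr19:53528895-53529144, plus strand) and Fos (chr12:85473640-85473889, plus strand).
Btg2: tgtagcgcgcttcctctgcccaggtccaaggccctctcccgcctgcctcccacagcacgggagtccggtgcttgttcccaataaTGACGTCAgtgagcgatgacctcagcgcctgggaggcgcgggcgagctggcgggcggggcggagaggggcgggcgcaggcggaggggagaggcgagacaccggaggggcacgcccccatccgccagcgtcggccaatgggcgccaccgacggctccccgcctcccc
Arl4d: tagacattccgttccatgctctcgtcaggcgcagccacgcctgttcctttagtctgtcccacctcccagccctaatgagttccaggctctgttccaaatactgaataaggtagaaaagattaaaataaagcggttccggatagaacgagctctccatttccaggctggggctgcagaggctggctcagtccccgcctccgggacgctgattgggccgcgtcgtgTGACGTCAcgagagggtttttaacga
Dusp5: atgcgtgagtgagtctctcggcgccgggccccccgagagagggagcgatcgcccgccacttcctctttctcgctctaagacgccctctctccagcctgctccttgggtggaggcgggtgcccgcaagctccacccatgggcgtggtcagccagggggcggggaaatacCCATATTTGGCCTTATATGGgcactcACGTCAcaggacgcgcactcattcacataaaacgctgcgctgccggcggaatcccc
Fos: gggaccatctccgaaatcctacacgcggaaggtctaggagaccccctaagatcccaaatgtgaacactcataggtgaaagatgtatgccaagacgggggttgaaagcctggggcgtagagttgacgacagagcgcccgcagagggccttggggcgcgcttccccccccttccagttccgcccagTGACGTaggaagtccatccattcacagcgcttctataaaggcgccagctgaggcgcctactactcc
The full CRE began 166 bases before the start in Btg2 and 26 bases before it in Arl4d. Dusp5 held neighbouring CArG boxes that began 82 and 72 bases before the start, followed by a CRE core on the opposite strand at 56 bases. Fos held a CRE core at 66 bases.

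Fos (gene ID 14281), a subunit of the AP-1 transcription factor, was at 7.16 and 6.72 FPKM in the home cage and at 44.21, 36.1 and 47.6 FPKM after exploration. All 3 exploration libraries were far above both home cage libraries, a 6.14-fold rise in the mean (log2 change 2.45 ± 0.45 SE, adjusted p = 0.00356). Egr2, a zinc finger transcription factor, went from 3.05 and 3.36 to 13.32, 11.88 and 14.01 FPKM (4.08-fold, adjusted p = 0.00198). Npas4, a factor induced by calcium entry in neurons, went from 3.36 and 4.1 to 14.02, 11.91 and 10.39 FPKM (3.25-fold, adjusted p = 0.00103). Groups did not overlap for any of the 3, and all 3 were called in every fit. Btg2, an antiproliferative co-regulator of mRNA decay, rose 4.38-fold from 3.36 and 3.23 to 19.21, 12.98 and 11.13 FPKM (adjusted p = 0.00103). Egr1, the most studied member of its family, rose from 139.4 and 113.6 to 249.7, 291.5 and 349 FPKM (2.35-fold, adjusted p = 0.00302), but its adjusted p was 0.0543 without home cage library 2. Ier2, a small immediate early gene, was 3.24-fold higher, and 0.0655 was its adjusted p without that library. Junb and Egr4, which belong to the AP-1 and Egr families, were 2.45-fold and 2.28-fold higher and called in every fit. Nr4a1 rose 1.66-fold and Egr3 1.34-fold, with adjusted p of 0.162 and 0.0802 without home cage library 2.

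Not every member of the class was high after exploration. Jun, the partner of Fos in AP-1, was at 12.58 and 22.79 FPKM in the home cage and at 9.75, 3.6 and 3.91 FPKM after exploration. It fell 3.07-fold in the mean (log2 change -1.53 ± 0.40 SE, adjusted p = 0.0162, and 0.198 without home cage library 2). Fosl2, another AP-1 subunit, fell 2.03-fold, from 8.75 and 12.45 to 5.75, 4.68 and 5.2 FPKM (adjusted p = 0.00658, and 0.114 without that library). Both groups of libraries were apart for either gene. Klf6, a zinc finger factor, also fell (adjusted p = 0.102 without that library). Fosb did not pass the test, since home cage library 2 (4.92 FPKM) lay among the exploration libraries (4.93, 4.1 and 5.17 FPKM) and library 1 (2.28 FPKM) below them. Nr4a2, Nr4a3, Srf, Bhlhe40 and Per1 did not pass either.

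Among the effectors, Arc, which encodes a capsid-like protein that removes AMPA receptors from synapses, was at 144.1 and 93.36 FPKM in the home cage and at 337.2, 351.9 and 445.5 FPKM after exploration (3.19-fold, log2 change 1.69 ± 0.32 SE, adjusted p = 0.00384). The lowest exploration library was more than double the higher home cage one, and the adjusted p was 0.0723 without home cage library 2. Arl4d, a small GTPase of the Arf family, rose 5.65-fold from 3.01 and 2.05 to 12.53, 14.64 and 15.75 FPKM (adjusted p = 0.00102). Dusp5, a nuclear phosphatase that inactivates ERK, rose 4.5-fold from 7.89 and 4.86 to 22.84, 22.73 and 40.49 FPKM (adjusted p = 0.00167). Both were called in every fit. Dusp1, a phosphatase of p38 and JNK, was 2.06-fold higher (adjusted p = 0.0597 without home cage library 2). Gadd45b, a stress sensor linked to DNA demethylation, was 1.8-fold higher (13.92 and 13.07 against 28.58, 24.81 and 19.62 FPKM). Homer1, a postsynaptic scaffold with a short inducible form, overlapped between the groups (45.97 and 48.13 against 53.24, 46.19 and 47.19 FPKM). Values per gene do not show that form.

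**Figure D2:**
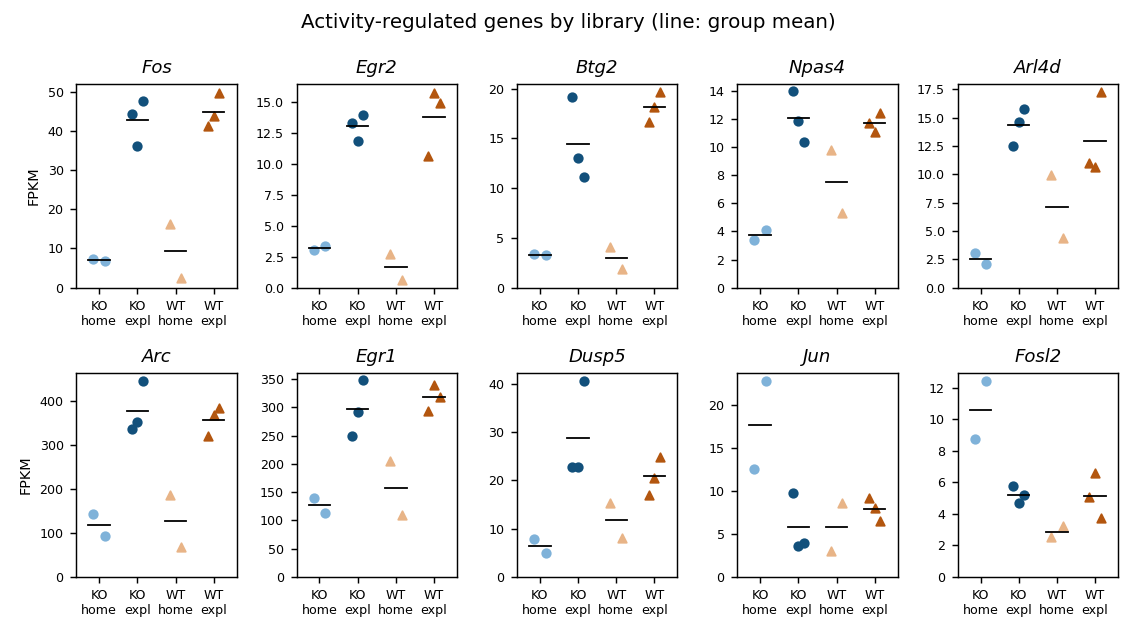
FPKM per library (points) and group mean (line) of 10 activity-regulated genes, with KO-labelled libraries as circles and WT-labelled ones as triangles. Fos, Egr2 and Btg2 are high in all 6 exploration libraries, while Jun and Fosl2 are highest in the KO-labelled home cage libraries.

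Of 13 tested members of the slower effectors, 2 rose, 2 fell and 9 did not pass, a share of calls near that of all tested genes (29.0%), and none was called without home cage library 2. Bdnf, the neurotrophin of activity-dependent plasticity, was at 18.81 and 16.07 against 23.15, 22.38 and 20.21 FPKM (1.26-fold, adjusted p = 0.0258, and 0.263 without that library). Inhba, a subunit of activin, was 2.03-fold higher at about 1 to 2 FPKM. Tgfb2, a growth factor, fell 3.2-fold from 7.73 and 14.21 to 4.93, 2.72 and 2.65 FPKM, and Scg2, a secretory granule protein, fell 1.3-fold. Among 6 tested neurotrophins and receptors, Ntrk3, the receptor of neurotrophin 3, fell 1.43-fold in every fit (28.18 and 30.14 against 20.74, 20.76 and 19.72 FPKM). Among 11 tested neuropeptide precursors 4 rose and 2 fell.

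Receptors of glutamate fell where they changed. Of 24 tested subunits and AMPA receptor auxiliary proteins, none rose, 11 fell and 13 did not pass, with a median log2 change of -0.23. Of the 11, 4 were called in every fit and 4 fell without home cage library 2. Grin3a, the NMDA receptor subunit that lowers calcium permeability, was at 5.67 and 9.85 FPKM in the home cage and at 2.1, 1.27 and 1.09 FPKM after exploration (5.22-fold lower, log2 change -1.80 ± 0.22 SE, adjusted p = 0.000927). Grm2, a presynaptic metabotropic receptor, was at 3.57 and 4.68 against 0.76, 0.24 and 0.12 FPKM (adjusted p = 0.00107). For both genes the home cage libraries lay well above. Cnih3, an AMPA receptor auxiliary protein, fell 2.75-fold (adjusted p = 0.00989, and 0.112 without home cage library 2). Grin2b, a main NMDA receptor subunit of forebrain neurons, fell 1.59-fold in every fit. The summed FPKM of the list overlapped between the groups, at 2274 and 1977 in the home cage and 2121, 2057 and 2152 after exploration.

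GABA receptor subunits gave 1 rise and 5 falls among 14 tested. Gabra2, the alpha subunit of inhibitory synapses on pyramidal cells, was at 23.91 and 34.38 against 16.43, 15.51 and 13.21 FPKM and was called in every fit (1.94-fold lower, adjusted p = 0.00221). Of 35 tested postsynaptic genes 6 rose and 7 fell. The scaffolds Shank1 and Shank2 fell 2.14-fold and 2.23-fold, and both lost the call without home cage library 2 (adjusted p = 0.0717 and 0.0589). The adhesion protein gene Nrxn2 fell 1.53-fold in every fit, from 44.95 and 45.37 to 28.24, 28.42 and 31.9 FPKM, while Camk2b, a subunit of the plasticity kinase CaMKII, was 1.49-fold higher (adjusted p = 0.0701 without home cage library 2). Of 34 tested genes of vesicle release 1 rose and 9 fell. Bsn, an active zone scaffold, fell 1.68-fold and Slc17a7, the vesicular glutamate transporter of these neurons, fell 1.4-fold (865.2 and 893.2 against 626.6, 619.3 and 639.8 FPKM), both in every fit.

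Ion channels moved both ways. The list holds voltage-gated channels together with potassium channels that are not gated by voltage, such as the Kcnj and Kcnk genes. Of 68 tested subunits 11 rose, 24 fell and 33 did not pass, and 3 rose and 4 fell without home cage library 2. Scn4b, the sodium channel beta subunit of resurgent current, was at 3.87 and 1.29 FPKM in the home cage and at 12.4, 22.36 and 18.6 FPKM after exploration (6.89-fold, log2 change 2.45 ± 0.30 SE, adjusted p = 0.000927). Kcnab1 and Kcnq5, a potassium channel beta subunit and the Kv7 channel of the M current, rose 1.65-fold and 1.94-fold in every fit. Cacna1e, the R-type calcium channel, fell 3.34-fold, from 17.44 and 26.7 to 5.73, 7.93 and 6.16 FPKM (adjusted p = 0.000863). Cacna1g, a T-type calcium channel, fell 3.43-fold, from 8.79 and 13.37 to 4.18, 3.28 and 2.22 FPKM (adjusted p = 0.00103). Both were called in every fit. Kcnd3, an A-type potassium channel, fell 3.18-fold (adjusted p = 0.0669 without home cage library 2).

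Genes that map position within the hippocampus were among the largest changes. Of 17 markers of CA2 and CA3 pyramidal cells 14 were tested, of which 8 rose and 2 fell, with a median log2 change of 1.03. The median was 0.04 in WT-labelled libraries. Pcp4 (gene ID 18546, chromosome 16), a calmodulin regulator that marks CA2, had the largest log2(FPKM + 1) change of all rises, from 5.05 and 9.43 to 69.21, 46.28 and 112.6 FPKM (10.5-fold, log2 change 3.19 ± 0.61 SE, adjusted p = 0.00442). Bok, a Bcl-2 family gene, rose 6.13-fold from 4.53 and 4.99 to 28.35, 26.82 and 32.43 FPKM (adjusted p = 0.000731). Both were called in every fit, as was Hs3st4 (1.68-fold). Amigo2, an adhesion protein and CA2 marker, went from 0.9 and 1.58 to 7.62, 6.06 and 16.93 FPKM (8.23-fold), and Cpne4, a copine, from 1.04 and 1.46 to 11.18, 5.85 and 13.29 FPKM (8.09-fold). They lost the call without home cage library 2 (adjusted p = 0.0961 and 0.0777). Exploration library 3 was the highest for these genes. Rgs14, a defining CA2 gene, overlapped between the groups (99.58 and 94.11 against 114.3, 96.84 and 118.5 FPKM, adjusted p = 0.22), and Grik4 and Cpne7 fell (2.09-fold and 2.66-fold, adjusted p = 0.219 and 0.125 without home cage library 2).

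These markers also varied within the WT-labelled home cage group. Pcp4 was at 84.32 FPKM in WT-labelled home cage library 1 and at 10.66 in library 2, Amigo2 at 16.11 and 1.78, and Cpne4 at 13.45 and 1.73 FPKM. The lone library 1 thus reached the range of the KO-labelled exploration libraries without exploration. In bulk tissue fewer cells of a type and less RNA per cell cannot be told apart, and how much of the cut tissue came from CA2 was not tested.

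Markers of CA1 itself moved both ways: of 12 tested, 4 rose, 6 fell and 2 did not pass. Wfs1, Fibcd1, Mpped1 and Spink8 were abundant in all 5 libraries, the lowest value being 64.88 FPKM. Wfs1, known as a marker of dorsal CA1, went from 127.3 and 64.88 to 153.1, 215 and 228.2 FPKM (2.07-fold, adjusted p = 0.00726, and 0.108 without home cage library 2). Lefty1, a Nodal inhibitor, rose 2.22-fold in every fit (50.93 and 27.05 against 85.76, 81.48 and 92.06 FPKM). Nov, known as a marker of ventral CA1, went from 234.7 and 248.9 to 138.8, 87.61 and 54.14 FPKM (2.59-fold lower, adjusted p = 0.00552, and 0.0698 without that library). Dcn, a proteoglycan also known from ventral CA1, was at 27.24 FPKM in home cage library 2, 2.82 in library 1 and 2.12, 0.6 and 0.38 after exploration, so that its fall rests on that library (adjusted p = 0.0134 with it and 0.138 without). Grp, a neuropeptide precursor of ventral CA1 cells, fell 5.88-fold, from 40.28 and 58.83 to 20.6, 3.54 and 1.16 FPKM (adjusted p = 0.0162, and 0.147 without library 2). For Nov, Dcn and Grp the exploration libraries took the same places, with library 1 the highest and library 3 the lowest. Where along the long axis of the hippocampus each section was cut is not given, and its part in these values was not tested.

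**Figure D3:**
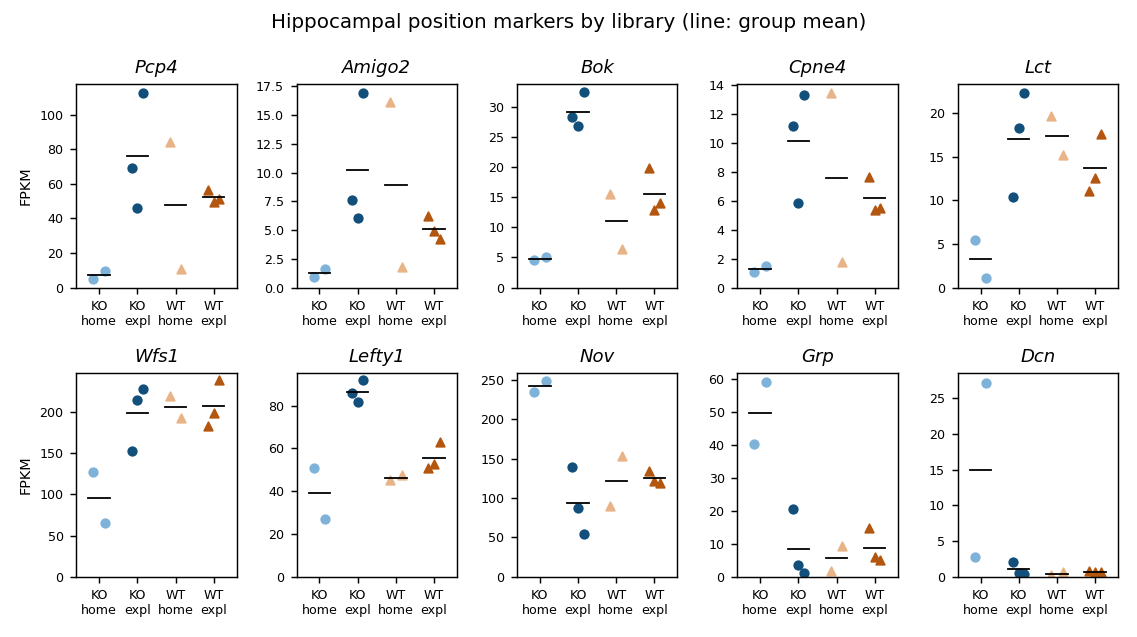
FPKM per library (points) and group mean (line) of 10 genes that are known to differ with position in the hippocampus, for the 4 groups. Pcp4, Amigo2 and Cpne4 are low in both KO-labelled home cage libraries and in 1 of the 2 WT-labelled ones, and Nov, Grp and Dcn are highest in the KO-labelled home cage libraries.

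Timp2, Fxyd6 and Ndrg1 were, with Grp, Dcn and noncoding RNAs, the genes that the naming rule ranked as falling most on the log2(FPKM + 1) scale. Timp2, an inhibitor of matrix metalloproteases, went from 108.8 and 180 to 39.13, 18.2 and 10.33 FPKM (6.4-fold lower, log2 change -2.78 ± 0.48 SE, adjusted p = 0.00275). Fxyd6, a regulator of the sodium pump, went from 56.78 and 72.24 to 22.24, 9.14 and 5.94 FPKM (5.19-fold lower, adjusted p = 0.00272). Ndrg1, a stress-responsive gene of myelinating and other cells, went from 27.44 and 54.45 to 12.64, 4.6 and 5.36 FPKM (5.44-fold lower, adjusted p = 0.00249). Of the 3, Fxyd6 alone was called in every fit, since Timp2 and Ndrg1 had adjusted p of 0.0538 and 0.0505 without home cage library 2. On the side of the rises, Lct, listed as a dentate marker, went from 5.44 and 1.06 to 10.36, 18.22 and 22.29 FPKM (5.22-fold, adjusted p = 0.00324). Of 12 listed dentate markers 3 were tested, of which 2 rose and none fell. The other rise was Fam163b (12.94 and 14.75 against 15.02, 19.18 and 19.65 FPKM, limma adjusted p = 0.0478). The dentate genes Prox1, Dsp, C1ql2 and Tdo2 were under 1 FPKM in all 5 libraries and were not tested.

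Markers of other cell types were read in the same way. None of 17 tested oligodendrocyte or 14 microglia markers was called by limma in either direction, and 2 of each list had an unadjusted p under 0.05. The microglia list summed to 112 and 122 FPKM in the home cage and to 118 to 132 after exploration, and the oligodendrocyte list to 246 and 292 against 287 to 333. Of 16 astrocyte markers 1 rose and 2 fell, among them Slc6a11, a GABA transporter, which fell 1.6-fold in every fit. The same contrast in WT-labelled libraries called 6 oligodendrocyte, 4 microglia and 5 astrocyte markers higher and none lower. There 2.02% of all tested genes were called higher. The difference between labelled genotypes passed for none of the oligodendrocyte or microglia markers. Of 16 tested interneuron markers 3 rose and 2 fell in KO-labelled libraries. Pvalb, of fast-spiking cells, rose 1.72-fold in every fit (39.69 and 34.69 against 68.51, 53.63 and 70 FPKM), while Gad1, Gad2, Slc32a1 and Sst did not pass. Nos1, neuronal nitric oxide synthase, fell 2.94-fold in every fit, and Kit, a receptor tyrosine kinase, fell 4.1-fold (adjusted p = 0.0522 without home cage library 2). Of 9 endothelial markers 2 rose and 1 fell. The blood gene Hbb-bs was 2.08-fold higher (adjusted p = 0.0573 without home cage library 1). Drd1 and Drd2, which define striatal neurons, stayed at or under 0.32 FPKM, and Tcf7l2, Prkcd and Lef1 of the thalamus under 1 FPKM, although 1 rise and 2 falls among 4 striatal and 3 rises and 1 fall among 6 thalamic markers were called.

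**Figure D4:**
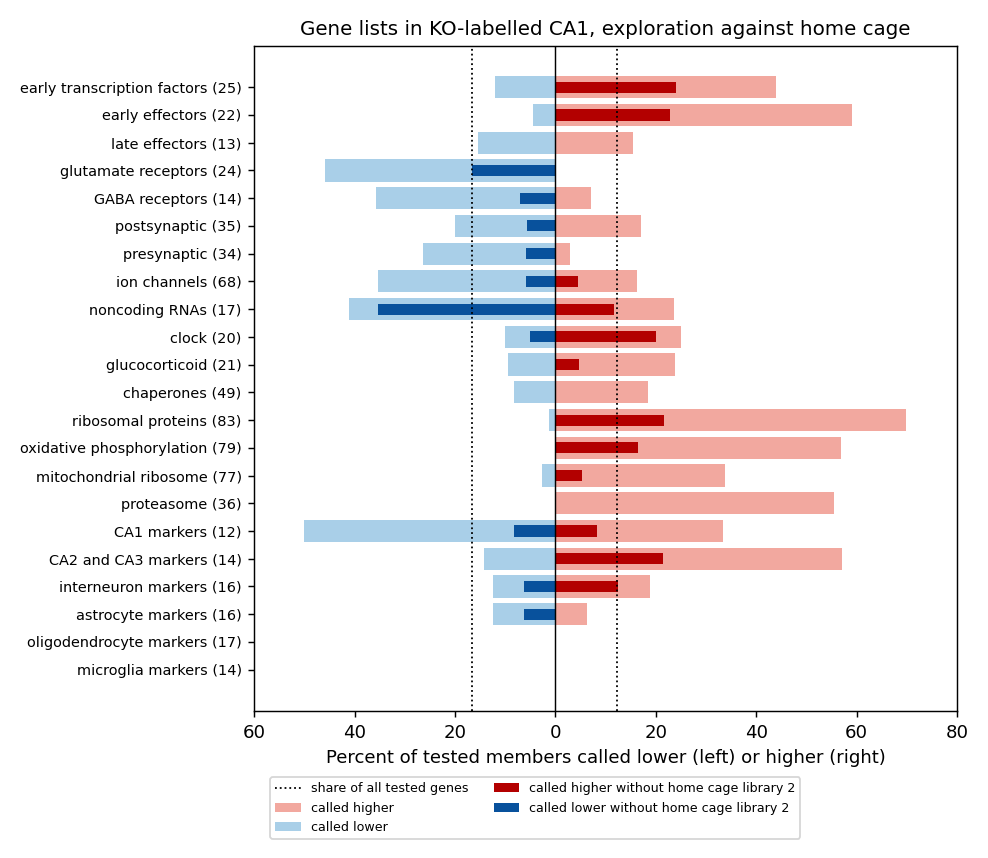
Share of the tested members of each gene list (number in brackets) called higher (right) or lower (left) after exploration, with all libraries (wide bars) and without home cage library 2 (narrow bars). Dotted lines mark the share of all tested genes with all libraries, 12.3% higher and 16.7% lower. They apply to the wide bars only, since the share without home cage library 2 is lower and is not drawn. Many wide bars exceed the dotted line on the right. Among them are those of the early genes, ribosomal proteins, oxidative phosphorylation, proteasome and CA2 and CA3 markers.

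Ribosomal RNAs included the largest fall of all tested genes on the log2(FPKM + 1) scale. Rn18s, the 18S ribosomal RNA, was at 1857 and 2398 FPKM in the home cage and at 10.56, 8.48 and 8.14 FPKM after exploration. Rn4.5s was at 10.83 and 7.74 FPKM in the home cage and listed at 0 in all 3 exploration libraries, and Rn45s, the ribosomal precursor, was at 5.98 and 7.82 against 0.03 FPKM or less. Rn28s1, the 28S ribosomal RNA, went the other way, from 0.01 and 0 to 3.21, 2.46 and 2.62 FPKM. The WT-labelled libraries differed in the same way: Rn18s was at 1715 and 1744 FPKM in the home cage and at 5.69, 8.61 and 9.46 FPKM after exploration. Of 17 tested members of the noncoding list 4 rose and 7 fell. Bc1, a small cytoplasmic RNA of dendrites, was 3.12-fold higher (94.75 and 33.94 against 248.1, 214.1 and 139.5 FPKM).

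Among long noncoding RNAs kept in the nucleus, Meg3 fell 4.79-fold, from 71.35 and 82.65 to 22.58, 18.94 and 6.67 FPKM (adjusted p = 0.00167). Miat fell 6.15-fold, from 15.92 and 19.29 to 3.91, 3.84 and 0.84 FPKM (adjusted p = 0.00123). Malat1 fell 2.39-fold, from 28.71 and 38.91 to 15.87, 15.52 and 11.08 FPKM. All 3 were called in every fit. Snhg11 fell 4.36-fold, with an adjusted p of 0.056 without home cage library 2. Exploration library 3 was the lowest for these 4 RNAs, and all 4 fell in WT-labelled libraries too.

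Genes for protein synthesis and respiration were higher as groups. Of 83 tested cytosolic ribosomal proteins 58 rose, 1 fell and 24 did not pass, with a median log2 change of 0.41, and 18 rose without home cage library 2 (median 0.26). Their summed FPKM was 23576 and 18953 in the home cage and 32062, 27814 and 26523 after exploration, so the groups did not overlap and exploration library 1 was the highest. Rps14, of the small subunit, went from 479.9 and 343.8 to 976.6, 738.1 and 715.3 FPKM (1.97-fold, adjusted p = 0.00195). Rps27l and Rpl22l1, paralogs of ribosomal proteins, rose 2.35-fold and 2.09-fold. All 3 were called in every fit. Genes of this family have many near-identical pseudogene copies, and how the authors' counting split reads among them is not given.

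Of 79 tested nuclear-encoded subunits of oxidative phosphorylation 45 rose, none fell and 34 did not pass, with a median of 0.30, and 13 rose without home cage library 2. Atp5e, a subunit of ATP synthase, rose 2.15-fold from 158.6 and 108.2 to 320.9, 268.4 and 271.7 FPKM (adjusted p = 0.00102). Ndufa4, of the respiratory chain, rose 1.72-fold, from 563.8 and 442.2 to 998.5, 818.7 and 779.6 FPKM. Of 77 mitochondrial ribosomal proteins 26 rose and 2 fell, and of 36 proteasome subunits 20 rose and none fell. Without home cage library 2 the rises were 4 and 0.

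Transcript length moved with these results. Length and GC content of a gene were taken as the median over all its annotated GENCODE transcripts. These need not be the values of the main transcript or the lengths behind the FPKM, so the removal of trends below covers this measure only. Ribosomal protein and oxidative phosphorylation transcripts had a median length of 628 and 627 nt, against 1440 nt over all tested genes with a length. Among the 2262 genes with the shortest transcripts 19.1% were called higher and 11.4% lower, and among the 2262 with the longest 6.68% and 25.0%. Genes called higher had a median length of 1030 nt and genes called lower 1960 nt, with 49.9% and 52.4% GC. After the trends of log2 values with length and GC content were removed, 50 ribosomal protein genes rose and 1 fell (median 0.33), and 35 oxidative phosphorylation genes rose and none fell (median 0.22). Glutamate receptors, with a median length of 3130 nt, then gave 9 falls and no rise (median -0.15), and the early transcription factors 14 rises and 3 falls (median 0.38). With every library scaled to the same FPKM sum, the median of all genes moved to -0.14 from -0.04 and 23.4% of calls were higher, against 42.5%. On that scale 49 ribosomal protein genes rose and 1 fell, and the early transcription factors gave 11 rises and 4 falls.

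Genes that write and erase DNA methylation gave 3 rises and 4 falls among 12 tested. Tet2, which oxidises 5-methylcytosine, was at 2.81 and 2.83 FPKM in the home cage and at 0.92, 1.29 and 0.74 FPKM after exploration (2.87-fold lower, adjusted p = 0.00158). Dnmt3a, a de novo methyltransferase, fell 2.28-fold, from 4.17 and 5.47 to 2.28, 2.23 and 1.83 FPKM (adjusted p = 0.00192). Both were called in every fit, and both fell in WT-labelled libraries (adjusted p = 0.00427 and 0.0143). Tet3 fell 1.86-fold (adjusted p = 0.0909 without home cage library 2). Among 17 tested genes of base excision repair, the pathway of NEIL3, Parp1, the sensor of strand breaks, rose 1.35-fold (31.67 and 31.3 against 39.02, 42.36 and 45.88 FPKM), Lig3, a DNA ligase, fell 1.44-fold, and 15 did not pass. Neither call held without home cage library 2 (adjusted p = 0.0563 and 0.205).

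Clock genes gave 5 rises and 2 falls among 20 tested, and 4 rises and 1 fall held in every fit. Ciart, a repressor within the clock, rose 3.14-fold, from 4.46 and 3.66 to 9.85, 12.9 and 15.49 FPKM (adjusted p = 0.000927). Dbp, an output factor of the clock, rose 2.26-fold, from 36.26 and 19.64 to 54.15, 63.8 and 71.2 FPKM, and Bhlhe41 rose 1.67-fold. Npas2, a paralog of Clock, fell 2.09-fold, from 10.34 and 9.75 to 4.66, 5.57 and 4.21 FPKM. The hour at which each mouse was killed is not given, and its part was not tested. Among 21 glucocorticoid-responsive genes 5 rose and 2 fell. Hsd11b1, the enzyme that regenerates active glucocorticoid within cells, had the lowest adjusted p of any list member outside the noncoding RNAs (8.31e-05), at 4.58 and 4.93 against 10.86, 11.9 and 13.56 FPKM (2.55-fold). Fkbp5 and Sgk1, common markers of glucocorticoid action, did not pass (adjusted p = 0.986 and 0.245). Of 49 heat shock and chaperone genes 9 rose and 4 fell, and none held in every fit. Hspa1a, the inducible Hsp70, was 1.66-fold higher.

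The response in KO-labelled libraries was set against that in WT-labelled ones. The group means share no library, but the contrasts share the same pair of tables and the same estimate of the spread. WT-labelled libraries thus also took part in choosing the genes called in every fit, and the responses are not independent. Of the genes called in every fit, 183 of 216 higher and 228 of 295 lower had the same sign in WT-labelled libraries, against 8077 of all 11633. Fos rose alike, with log2 changes of 2.45 in KO-labelled and 2.55 in WT-labelled libraries (difference -0.10 ± 0.64 SE, adjusted p = 0.961), and Arc too (difference 0.04 ± 0.45 SE, adjusted p = 0.979). Such errors leave room for a true difference of either sign. Meg3 changed by -2.34 and -2.38 (adjusted p of the difference 0.982), and Rps14 by 0.98 and 0.89 (0.88).

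The difference itself passed the test for 104 of 11892 genes (0.875%), 43 higher and 61 lower in KO-labelled libraries, and 1915 had an unadjusted p under 0.05. Scn4b changed by 2.45 in KO-labelled and 0.04 in WT-labelled libraries (difference 2.41 ± 0.42 SE, adjusted p = 0.0496). Its WT-labelled libraries stood at 13.8 and 8.78 FPKM in the home cage and at 10.45, 10.58 and 13.32 FPKM after exploration, so that the KO-labelled home cage libraries (3.87 and 1.29) were the low ones. Grm2 gave a difference of -2.01 ± 0.36 SE and Grin3a of -1.79 ± 0.31 SE (adjusted p = 0.0496 for each), and for both genes the KO-labelled home cage libraries were the high ones. Bok gave 1.84 ± 0.37 SE. Fosl2 gave -1.53 ± 0.27 SE, with 2.53 and 3.21 FPKM in the WT-labelled home cage against 5.05, 6.6 and 3.74 FPKM after exploration. The adjusted p of 0.0496 is shared by all of these genes, and no gene passed without home cage library 2 of the KO-labelled group, without exploration library 3 of that group, or without WT-labelled home cage library 1 or exploration library 1 (limma, 1315 to 2283 genes with an unadjusted p under 0.05). Without KO-labelled exploration library 2 or WT-labelled exploration library 2 the count was 2 and 1, without WT-labelled exploration library 3 it was 58, and without KO-labelled home cage library 1 or exploration library 1 it was 462 and 330. Pcp4 did not pass (difference 2.43 ± 0.87 SE, adjusted p = 0.187), and neither did Grp (-3.80 ± 1.13 SE, adjusted p = 0.115), Timp2 (-3.05 ± 0.68 SE, adjusted p = 0.0579) or Jun (-2.03 ± 0.56 SE, adjusted p = 0.0961).

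**Figure D5:**
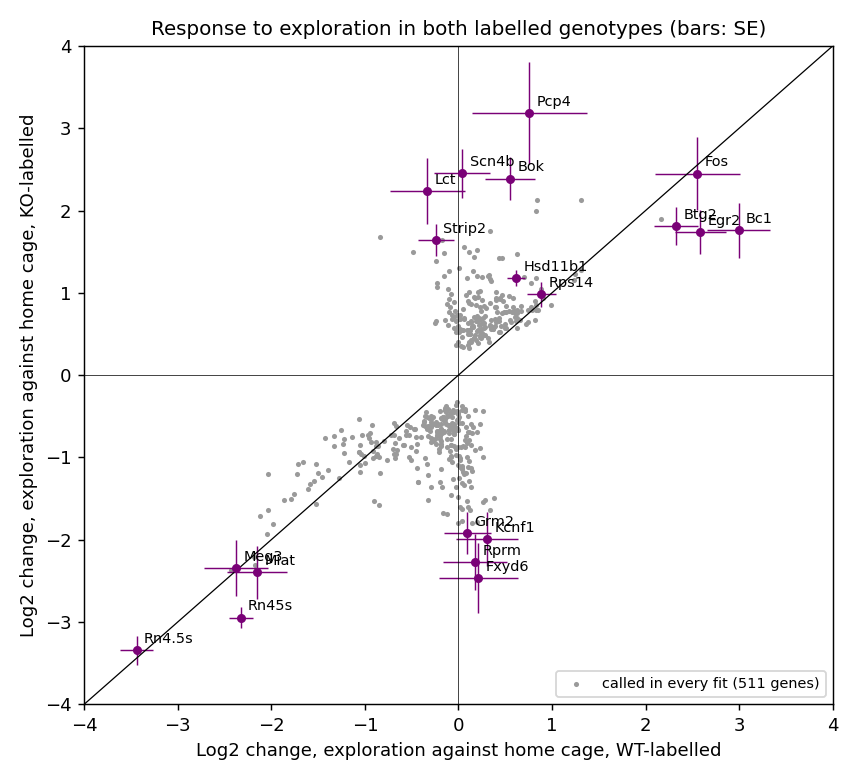
Log2 change after exploration in WT-labelled (x axis) and KO-labelled (y axis) libraries for the 511 genes called in every fit (grey) and for 19 labelled genes with their SE (purple), with the line of equal change. Rn18s lies outside the axes, Fos, Meg3 and Rn45s lie near the line, and Scn4b, Lct, Rprm and Kcnf1 lie near 0 on the x axis and far from 0 on the y axis.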

How the data were processed

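RNA of laser-cut CA1 was sequenced as paired reads of 100 bp, per the labels' protocols. The deposited FPKM values were made by the authors. The submitters' processing notes name HISAT, StringTie, GATK, Bowtie2 and RSEM and the builds GRCm38 and mm10, with no roles. Whether the home cage table (18257 genes) and the exploration table (19156 genes) were scaled together, and whether counting used strand, is not given in the sources used here. Library depth is not given by FPKM. The sums ran from 405718 to 466701 FPKM. The labels do not say that replicates are separate mice, so p-values measure the spread between libraries.

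Tables were joined on gene ID, and 1441 genes of a single table were left out. Log2(FPKM + 1) was fitted with limma 3.58.1 in R 4.3.3 over 10 libraries with 1 mean per group and a variance trend (6 residual and 5.73 prior degrees of freedom). Log2 changes on this scale understate the change of low genes. Folds are ratios of mean FPKM. The script was tested on simulated data. The difference between labelled genotypes used genes with 1 FPKM in 2 of the 10 libraries. Alternatives changed the pseudocount, filter, scaling, variance model, GC and length trends and the libraries.

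The gene set and all lists were chosen with earlier results of these data known. Named genes were Neil3, the 10 largest rises and 10 largest falls called in the 10-library and 5-library fits, without overlap and with a mean of 5 FPKM or more in the higher group, up to 4 called genes per list, 6 early genes (Fos, Arc, Egr1, Npas4, Jun and Fosl2), and up to 5 differences per direction. Any other gene named was chosen after its values were seen.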

Additional observations from a re-analysis of the deposited data

Results flagged for a closer look

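For 16 named genes the exploration response differed between the labelled genotypes by the test of the difference itself (limma, adjusted p = 0.0496 for each). Up to 5 genes per direction were named because they passed this same test, so their number is no measure of how common a difference was. Over all tested genes it passed for 104 of 11892 (0.875%). Among the 16, the call held in 2 (Rprm among them) to 5 (Mir703) of the 10 fits that left out a library. The difference in log2 change, KO-labelled minus WT-labelled, was positive for Xlr3b (2.52), Scn4b (2.41), Itga7 (1.98), Strip2 (1.88), Bok (1.84) and Bhlhe41 (0.75). It was negative for Ndrg1 (-2.92), Mir703 (-2.74), Rprm (-2.45), Kit (-2.33), Kcnf1 (-2.29), Grm2 (-2.01), Grin3a (-1.79), Fosl2 (-1.53), Slc6a11 (-0.79) and Nrxn2 (-0.55). Mir703 was near the floor, at 1.94 and 1.01 against 0, 0.99 and 0 FPKM after exploration in KO-labelled libraries. In WT-labelled libraries it was listed at 0 in both home cage libraries and at 2.82, 2.78 and 1.89 FPKM after exploration. Strip2 was at 7.23 and 4.42 FPKM in the KO-labelled home cage and at 17.5, 18.85 and 23.51 FPKM after exploration, against 19.68 and 15.52 and then 13.1, 13.13 and 18.06 FPKM in the WT-labelled libraries. Rprm was at 9.04 and 18.93 against 3.75, 1.38 and 1.24 FPKM in KO-labelled libraries, and between 1.43 and 3.15 FPKM in all WT-labelled ones. For both genes the KO-labelled home cage libraries are those that stand apart from the other 3 groups.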

How the results depend on the processing

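The count of 3379 called genes stayed within 1.5 times under another pseudocount, filter, scaling or variance model (2562 to 3811) and with GC and length trends removed (3196). It was 1700 with the 5 KO-labelled libraries alone and 546 to 3551 when libraries were left out in turn, the lowest without KO-labelled home cage replicate 2. The count of 104 differences between labelled genotypes was 0 with a pseudocount of 0.1, with no filter, with no variance trend and with GC and length trends removed (limma, 1847 to 2571 genes with an unadjusted p under 0.05), was 68 with a filter of 5 FPKM, and ranged from 0 to 462 over the left-out libraries. Of 2354 alternative values for 113 named genes, 2159 kept their direction and side of the threshold and 194 kept the direction and lost the call (61 of them without KO-labelled home cage replicate 2). Neil3 alone gained a call (-0.50 without KO-labelled exploration replicate 1). No paired analysis was possible because the replicate numbers only name libraries: the KO-labelled titles carry no number shared between environments. Depth is unknown, so no counting limit is given for genes listed at 0.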
